A study of Mus musculus with 6 samples.

Results

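The genes described are the subunits of the proteasome and their dedicated helpers, taken as every measured gene whose symbol starts with Psm, a letter from a to g and a number. There were 50 such genes among the 19937 measured. Of these, 48 carry the plain name of a proteasome gene. The other 2, Psmc3ip and Psme3ip1, are named after a subunit that their protein binds, and are kept apart. The 48 comprise 19 genes of the 20S core (8 Psma, 11 Psmb), 6 ATPase genes (Psmc), 14 genes of the lid and base (Psmd), and 9 genes of activators, an inhibitor and assembly factors (Psme, Psmf, Psmg).

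The cells were clone #483, a C57BL6 mouse leukaemia of immature T cells (T-ALL), so every sample comes from 1 leukaemia line. The 3 samples of the treated group received 100 µM 4EGI-1 for 2 h. This small molecule keeps eIF4E, which holds the mRNA cap, from joining its scaffold eIF4G. The 3 control samples are titled untreated, whereas the protocol names DMSO as the alternative to 4EGI-1, so whether controls received solvent is not settled. RNA of the pooled polysome fractions of a sucrose gradient was hybridised to 1 array per sample, and the design text calls the samples biological replicates. Values are log2 signals. A polysomal signal can change through the amount of an mRNA or through its ribosome loading, and as total RNA was not analysed here these cannot be told apart. In a bulk sample, fewer cells of a type and less RNA per cell cannot be told apart either.

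The proteasome is the barrel-shaped protease that degrades proteins tagged with ubiquitin. Its 20S core is built of stacked rings of alpha subunits, which form the gate, and beta subunits, some of which cut the substrate. The regulatory particle caps the core: a base with a ring of ATPases unfolds the substrate, and a lid removes the ubiquitin chain. Alternative caps (PA28, PA200), an inhibitor and assembly chaperones complete the system. In lymphoid cells the catalytic beta subunits can be replaced by those of the immunoproteasome, which favours the making of peptides for MHC class I. The transcription factor NRF1 (Nfe2l1) is known to raise proteasome genes together through antioxidant response elements in their promoters, and 4EGI-1 acts at the mRNA cap. Both kinds of sequence are therefore shown here.

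RefSeq (GRCm38.p6) gave a promoter for 40 of the 48 genes. The core of the antioxidant response element, TGACNNNGC, read on either strand in the 250 bases before the annotated start, was in 5 of these 40 (12.5%), against 12.5% of 15613 measured genes with a promoter. The 5 matches are shown because they are the complete set; capitals mark the match, and each window of 60 bases is written on the strand of the gene. On the gene's own strand the matches lie 9 bases before the start in Psmb6, 47 in Psmb5 and 31 in Psmd9. In Psmd12 and Psmc6 the match lies on the other strand, as GCNNNGTCA, and begins 247 and 227 bases before the start. 
Psmb6 (chr11:70525297-70525356, plus strand): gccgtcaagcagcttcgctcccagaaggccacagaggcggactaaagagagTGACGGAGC
Psmb5 (chr14:54618008-54618067, minus strand): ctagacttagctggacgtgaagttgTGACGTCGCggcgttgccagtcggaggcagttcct
Psmd9 (chr5:123228130-123228189, plus strand): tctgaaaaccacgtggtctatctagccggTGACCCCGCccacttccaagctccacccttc
Psmd12 (chr11:107479278-107479337, plus strand): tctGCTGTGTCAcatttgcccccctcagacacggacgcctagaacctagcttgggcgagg
Psmc6 (chr14:45329574-45329633, plus strand): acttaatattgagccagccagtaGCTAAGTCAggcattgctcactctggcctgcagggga

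The start of the mRNA was read for a terminal oligopyrimidine, the cap-side mark of mRNAs known to depend on the cap-binding complex and mTOR. It was taken as a C at the annotated start followed by at least 4 further C or T. It was found at an annotated start of 0 of the 40 genes, against 2.75% of the 15613 measured genes and 21.3% of 61 genes named Rpl or Rps. Beside a share of 2.75%, a count of 0 among 40 does not set these genes apart. Only annotated starts were read, and whether these cells use them was not tested, so the motif was not shown to be absent. The first 20 bases are shown for the core genes Psma5 and Psmb4, lower with 4EGI-1, for Psmd1 and Psmf1, higher, and for Psmb5 and Psmc6, which did not pass the test. Capitals mark the unbroken run of C and T where the first base is C. The longest run among the 40 genes was 4, in Psmc6.
Psma5 (chr3:108256926-108256945, plus strand): aaagcgcggcgtgctcactc
Psmb4 (chr3:94886939-94886958, minus strand): Cgtttccggtgacgctagcg
Psmd1 (chr1:86064619-86064638, plus strand): agggcgggcggggtcctcgg
Psmf1 (chr2:151741291-151741310, minus strand): Cgtctctgcgtttccgcgtt
Psmb5 (chr14:54617976-54617995, minus strand): aaacatggcgctggctagcg
Psmc6 (chr14:45329824-45329843, plus strand): CCCTatgagcgacggcttct

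After 4EGI-1, polysomal RNA of 6 genes of the 20S core, 2 core assembly chaperones, 2 PA28 genes and 3 genes of the Psmd class fell, while the base scaffold gene Psmd1 and the inhibitor gene Psmf1 rose. None of the 6 ATPase genes passed the test. Of all 50 genes, 14 fell and 2 rose at an adjusted p under 0.05 (limma, adjusted over all 19937 genes), and 34 did not pass. Across all genes 22.9% were called, 11.5% as lower and 11.5% as higher. For the 50 the shares were 28.0% lower and 4.00% higher. The changes were small: the median log2 difference (4EGI-1 minus control) was -0.11 against -0.03 over all genes, and the extremes were -0.52 in Psma5 and 0.53 in Psmd1.

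Genes with a high signal were called more often, and most proteasome genes have a high signal. Among the 2395 genes with a mean log2 signal of at least 10, 25.7% were lower and 18.9% higher. Of the 35 proteasome genes at that signal, 9 were lower (25.7%) and 1 was higher (2.86%). At this signal 28.6% of the proteasome genes were called, against 44.6% of all genes: the share of lower genes was that of the background, so the count of lower genes does not set this class apart, and the smaller share of higher genes rests on 1 gene and was not tested. The groups did not overlap in 24 genes that were lower with 4EGI-1 and 3 that were higher, against 20.8% and 17% of all genes, or 37.9% in either direction. Among genes with a mean log2 signal of at least 10 these shares were 42.7% lower and 27.8% higher, beside 18 and 2 of the 35 proteasome genes at that signal.

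**Figure D1:**
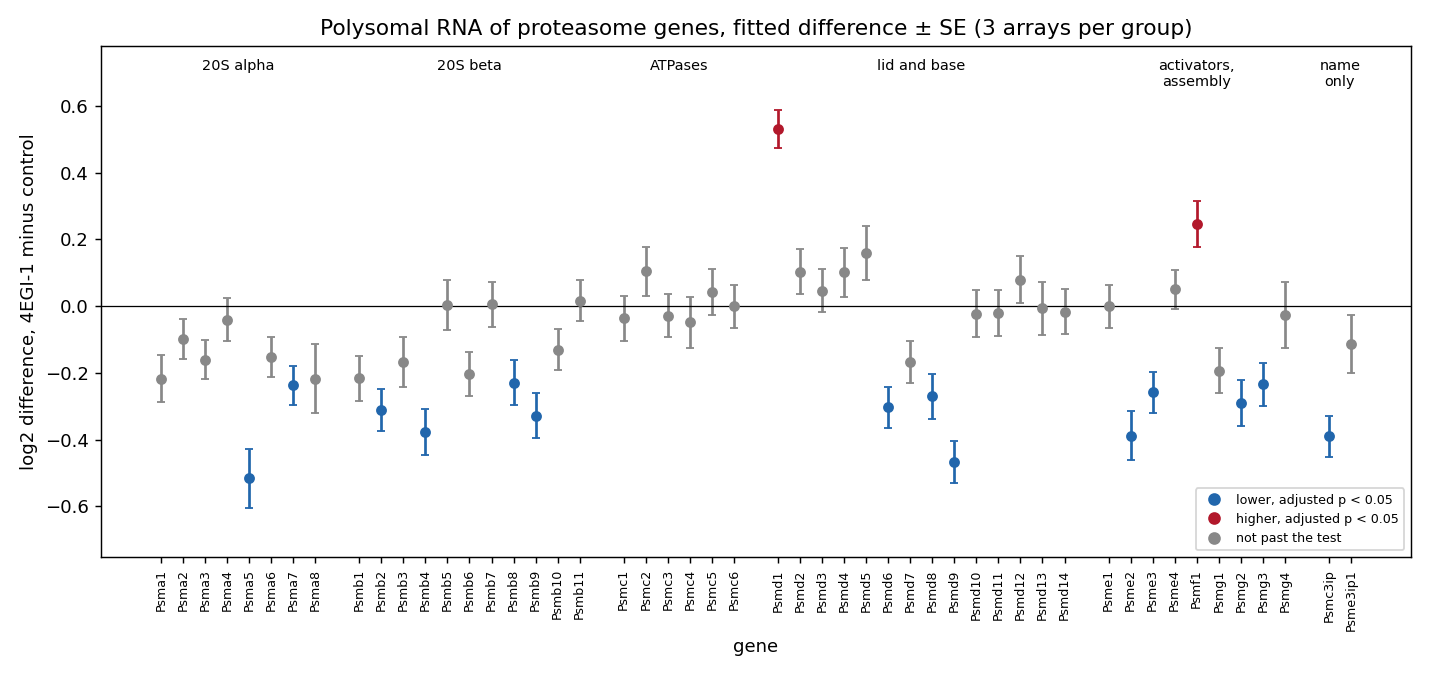
Fitted log2 difference of each gene (4EGI-1 minus control, y axis) with its standard error, by class along the x axis, 3 arrays per group. The 6 lower genes of the 20S core and 0 called ATPase genes stand beside Psmd1, the highest point at 0.53.

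The alpha subunits form the outer rings of the core. All 8 measured Psma genes had a difference below 0, with a median of -0.19. Judged by the brightest probe set of each gene, only Psma5 and Psma7 fell. Psma5 (probe set 10365426) read 11.66, 11.40 and 11.33 in the controls and 10.92, 10.95 and 10.98 with 4EGI-1. All controls lay above all treated arrays, with a difference of -0.52 ± 0.09 (SE; adjusted p = 0.00403), and the signal fell by 30.1%. Its control arrays were the most spread of the called genes (SD 0.17), with control 1 the highest.

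Psma7 had closely matching controls, 12.13, 12.12 and 12.13, and read 11.87, 11.95 and 11.85 with 4EGI-1. It fell by 0.24 ± 0.06 (SE; adjusted p = 0.0214), and the groups were clearly apart. With fewer arrays its call was lost: the adjusted p was 0.0567 to 0.0751 when any 1 array other than 4EGI-1 replicate 2 was left out. Psma1 (-0.22), Psma3 (-0.16), Psma6 (-0.15) and Psma2 (-0.10) did not pass, although their groups did not overlap. For Psma3 this holds for the brightest probe set only. When every probe set was tested, its others passed, at -0.36 (adjusted p = 0.0106) and -0.35 (adjusted p = 0.00481). Psma4 differed by -0.04 ± 0.06 with overlapping groups.

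Psma8 encodes an alpha subunit known from the testis. It read 5.06, 5.14 and 5.25 in controls and 5.03, 4.71 and 5.06 with 4EGI-1, below the table's median signal of 6.41, and its groups overlapped (-0.22 ± 0.10, adjusted p = 0.191).

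The 11 Psmb genes encode beta subunits. Of these 4 fell, 0 rose and 7 did not pass, with a median log2 difference of -0.20. Psmb4 and Psmb2 encode beta subunits without proteolytic activity. Psmb4 read 10.68, 10.67 and 10.50 in controls and 10.23, 10.25 and 10.25 with 4EGI-1. Its treated arrays were nearly identical and lay below every control (-0.38 ± 0.07, adjusted p = 0.00505). Psmb2 read 11.61, 11.61 and 11.49 in controls and 11.25, 11.29 and 11.24 with 4EGI-1. The groups were again apart, by 0.31 ± 0.06 on average (adjusted p = 0.00834). The other structural genes, Psmb1 (-0.22 ± 0.07, adjusted p = 0.0513) and Psmb3 (-0.17 ± 0.07, adjusted p = 0.160), did not pass. Psmb1 lay just outside the threshold and Psmb8, with an adjusted p of 0.0422, just inside it.

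The catalytic subunits of the standard core are encoded by Psmb5 (chymotrypsin-like), Psmb6 (caspase-like) and Psmb7 (trypsin-like), and 0 of the 3 passed. Psmb5 read 11.71, 11.63 and 11.69 in controls and 11.71, 11.55 and 11.79 with 4EGI-1, and Psmb7 read 12.41, 12.27 and 12.27 against 12.36, 12.32 and 12.28. Both pairs of groups overlapped. The differences were 0.00 ± 0.08 for Psmb5 and 0.01 ± 0.07 for Psmb7, with 95% intervals of -0.17 to 0.18 and -0.15 to 0.16. A fall as large as that of Psma5 or Psmb4 lies outside either interval, but a smaller difference such as that of Psmb10 (-0.13) lies inside both. Whether these genes differ from one another was not tested. Psmb6 read 12.07, 11.99 and 11.97 in controls and 11.81, 11.73 and 11.88 with 4EGI-1, lower without overlap but not past the test (-0.20 ± 0.07, adjusted p = 0.0601).

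Of the immunoproteasome genes Psmb8, Psmb9 and Psmb10, 2 fell and 1 did not pass. Psmb9 read 10.78, 10.93 and 10.86 in controls and 10.52, 10.48 and 10.59 with 4EGI-1. It fell by 0.33 ± 0.07 (SE; adjusted p = 0.00876) with no overlap. Psmb8 read 10.66, 10.65 and 10.50 in controls and 10.39, 10.33 and 10.40 with 4EGI-1. It fell by 0.23 ± 0.07 (SE; adjusted p = 0.0422), but the adjusted p was 0.0796 to 0.126 when any 1 array other than control replicate 3 was left out, and 0.0589 with array weights. Psmb10 read 8.73, 8.68 and 8.71 in controls and 8.51, 8.64 and 8.59 with 4EGI-1, a gap too small to pass (-0.13 ± 0.06, adjusted p = 0.189). Psmb11, the catalytic subunit known from the thymic epithelium, read 6.06, 6.14 and 6.19 in controls and 6.15, 6.17 and 6.13 with 4EGI-1, all below the table's median.

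**Figure D2:**
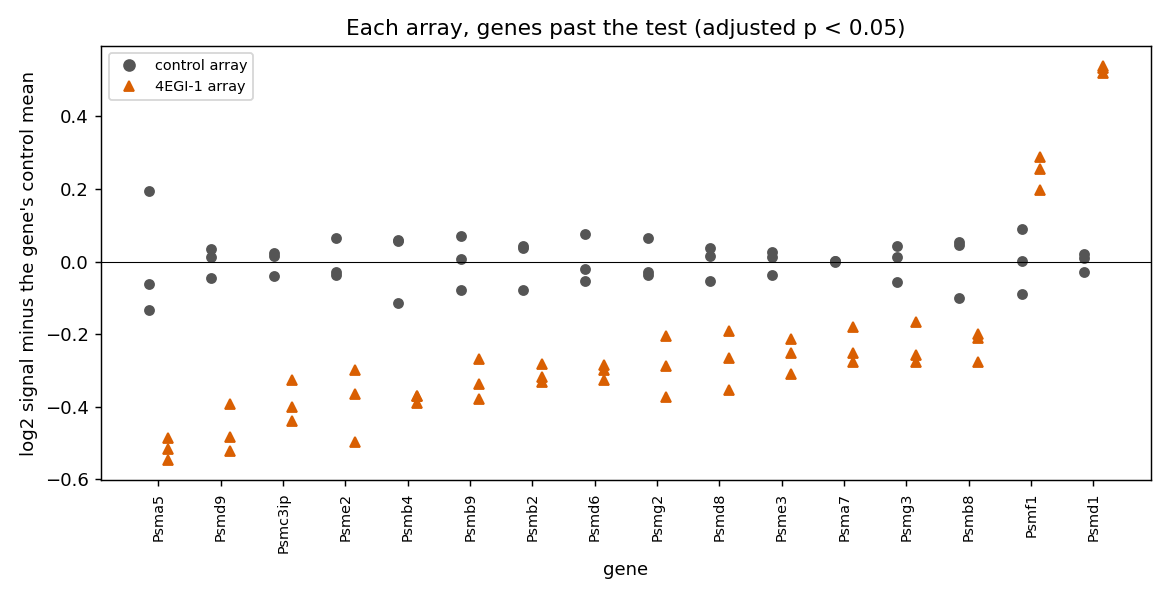
Log2 signal of each array minus the gene's control mean (y axis) for the 16 genes past the test (x axis), with circles for the 3 control arrays and triangles for the 3 arrays with 4EGI-1. The groups do not overlap in any of the 16, and Psma5 has the most spread controls (SD 0.17).

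The chaperones PAC1 to PAC4, encoded by Psmg1 to Psmg4, help the alpha ring to form. Psmg2 and Psmg3 fell, and Psmg1 (-0.19 ± 0.07, adjusted p = 0.0779) and Psmg4 (-0.03 ± 0.10, adjusted p = 0.888) did not pass. Psmg2 read 10.21, 10.11 and 10.11 in controls and 9.94, 9.77 and 9.86 with 4EGI-1. It was lower in every treated array, by 0.29 ± 0.07 on average (adjusted p = 0.0175; 0.0561 without 4EGI-1 replicate 2 and 0.0625 without control replicate 1). Psmg3 fell by 0.23 ± 0.06 (SE; adjusted p = 0.0305), and its adjusted p was 0.0883 to 0.0975 without replicate 2 or 3 of either group. Psmf1, which encodes PI31, a protein that inhibits the isolated core, went the other way. It rose from 8.74 ± 0.09 to 8.99 ± 0.05 (SD, n = 3 each), a difference of 0.25 ± 0.07 (SE; adjusted p = 0.0336). This call was lost, with an adjusted p of 0.0515 to 0.109, when any 1 array other than control replicate 1 was left out. In RefSeq the gene overlaps Tmem74b, which differed by 0.02 (adjusted p = 0.853).

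The ATPases, Psmc1 to Psmc6, form the ring that unfolds the substrate. Their differences spanned a narrow range, from -0.05 in Psmc4 to 0.11 in Psmc2, with a median of -0.01. The groups overlapped in all 6, and the smallest adjusted p was 0.381, for Psmc2. The lowest bound of the 6 95% intervals was -0.23, for Psmc4, and the highest was 0.27, for Psmc2. In all 6 genes control 1 was the highest control array.

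The 14 Psmd genes held the largest rise of the 50, that of Psmd1. Of these 3 fell, 1 rose and 10 did not pass, with a median of -0.01. Psmd1 encodes Rpn2, a scaffold of the base. It read 11.23, 11.27 and 11.28 in controls and 11.79, 11.78 and 11.80 with 4EGI-1. Both groups were tight and far apart, and Psmd1 rose by 0.53 ± 0.06 (SE; adjusted p = 0.000400), or 44.5%. In RefSeq it overlaps the snoRNA gene Gm22786 and Htr2b, the latter of which differed by -0.14 (adjusted p = 0.523). The other scaffold gene of the base, Psmd2 (Rpn1), read 10.92, 10.75 and 10.83 in controls and 10.90, 10.96 and 10.96 with 4EGI-1, with overlapping groups (0.10 ± 0.07, adjusted p = 0.333). The ubiquitin receptor gene Psmd4 (Rpn10) had a like difference, 0.10 ± 0.07 (adjusted p = 0.396).

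Psmd9, Psmd10 and Psmd5 encode chaperones that assemble the base. Psmd9 read 8.89, 8.97 and 8.95 in controls and 8.41, 8.54 and 8.45 with 4EGI-1. Every treated array was below every control, and Psmd9 fell by 0.47 ± 0.06 (SE; adjusted p = 0.00128). The gankyrin gene Psmd10 (-0.02 ± 0.07, adjusted p = 0.873) and Psmd5 (0.16 ± 0.08, adjusted p = 0.224) did not pass.

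The lid has 8 Psmd genes, of which Psmd6 and Psmd8 fell. Psmd6 (Rpn7) read 11.94, 11.81 and 11.84 in controls and 11.56, 11.54 and 11.58 with 4EGI-1, with a wide gap between the groups (-0.30 ± 0.06, adjusted p = 0.00907). Psmd8 (Rpn12), the last subunit to join the lid, fell by 0.27 ± 0.07 (SE; adjusted p = 0.0214; 0.0567 to 0.0722 without replicate 2 or 3 of either group). Psmd14, the deubiquitinase Rpn11 that removes the ubiquitin chain, differed by -0.02 ± 0.07 (adjusted p = 0.903), and its partner gene Psmd7 (Rpn8) by -0.17 ± 0.06 (adjusted p = 0.0985). The remaining lid genes Psmd3, Psmd11, Psmd12 and Psmd13 lay between -0.02 and 0.08.

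The PA28 and PA200 genes encode caps that open the core without ATP. Psme1 and Psme2 encode the alpha and beta subunits of one ring, PA28, which interferon induces. Psme2 fell and Psme1 did not pass. Psme1 read 12.03, 11.95 and 11.96 in controls and 12.00, 11.90 and 12.02 with 4EGI-1, with overlapping groups (-0.00 ± 0.06, 95% interval -0.15 to 0.15). Psme2 read 9.39, 9.49 and 9.40 in controls and 9.13, 8.93 and 9.06 with 4EGI-1. The groups did not overlap, and it fell by 0.39 ± 0.07 (SE; adjusted p = 0.00571). Another probe set, annotated to both Psme2 and its near-identical copy Psme2b and so left out of the fit, differed by -0.35.

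Psme3, the nuclear PA28 gamma gene, read 11.56, 11.61 and 11.63 in controls and 11.35, 11.29 and 11.39 with 4EGI-1. It was lower without overlap (-0.26 ± 0.06, adjusted p = 0.0161), though the adjusted p was 0.0525 without 4EGI-1 replicate 2, 0.0518 without control replicate 2 and 0.0609 without control replicate 3. Psme4, which encodes PA200, read 10.61, 10.57 and 10.61 in controls and 10.69, 10.62 and 10.63 with 4EGI-1. Its groups barely missed each other, and it did not pass (0.05 ± 0.06, adjusted p = 0.607).

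**Figure D3:**
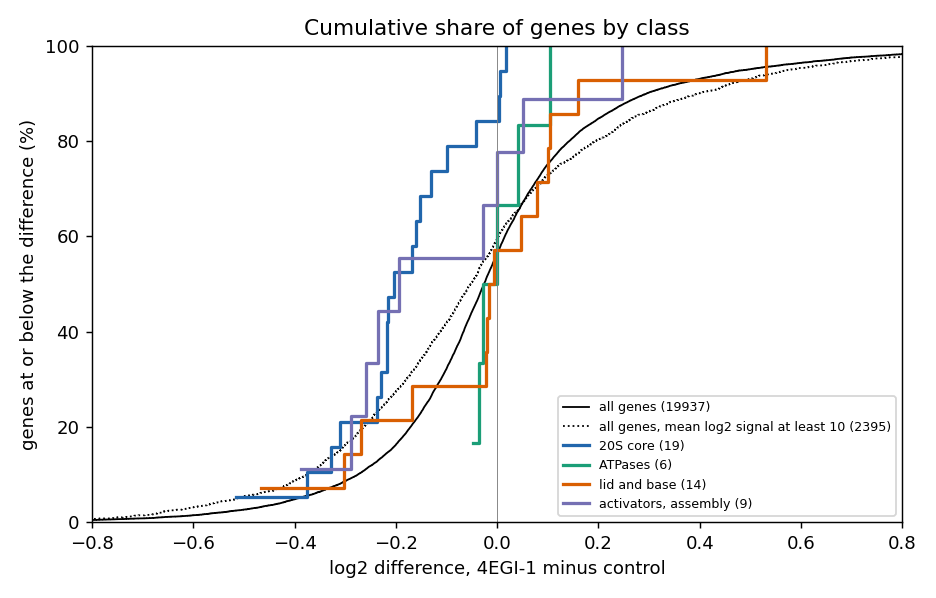
Cumulative share of genes (y axis, percent) at or below each log2 difference (x axis, 4EGI-1 minus control) for the 4 classes, all 19937 genes and the 2395 genes with a mean log2 signal of at least 10. The curves of the 20S core (median -0.20) and of the activators and assembly genes (median -0.19) lie to the left in their middle part, and the ATPase curve rises within -0.05 to 0.11.

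Side by side, the median log2 difference was -0.20 for the 19 genes of the core, -0.21 for the 4 Psmg chaperones, -0.01 for the 6 ATPases, -0.02 for the 8 lid genes and 0.10 for the 3 non-ATPase base genes. Over all genes with a mean log2 signal of at least 10 it was -0.05. The core had 16 of 19 differences below 0, and the lid and base 8 of 14. The share below 0 was 56.3% over all genes and 59.6% over those with a mean log2 signal of at least 10. Control 1 was the highest control in 14 of the 19 core genes, against 33.1% of all genes and 48.7% of the genes at that signal. Of the core genes, Psma8, Psmb10 and Psmb11 lie below that signal. In 14 of the 19 core genes the groups were lower without overlap, against 20.8% of all genes and 42.7% of those with a mean log2 signal of at least 10. These are counts over genes measured on the same arrays, and the difference between the classes was not tested.

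The change of one subunit relative to its partner was compared within arrays for 5 pairs chosen after their values were seen. With 3 arrays against 3, the exact two-sided permutation test cannot go below p = 0.1, so none of the pairs can pass. The log2 ratio of Psmd1 to Psmd2 went from 0.42 ± 0.11 to 0.85 ± 0.04 (SD, n = 3 each) and that of Psme2 to Psme1 from -2.55 ± 0.09 to -2.94 ± 0.05, both without overlap (exact p = 0.1, adjusted over 5 pairs 0.125). Psmb8 relative to Psmb5 changed by -0.23 and Psmb10 relative to Psmb7 by -0.14, with the same p and no overlap. Psmb9 relative to Psmb6 changed by -0.12 with overlapping values (exact p = 0.4, adjusted 0.4).

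**Figure D4:**
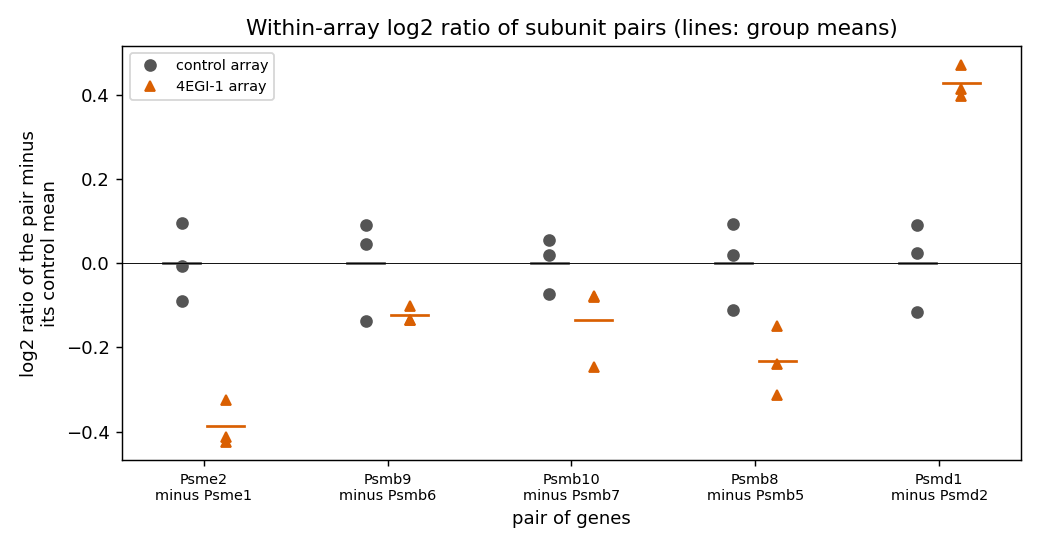
Log2 ratio of 5 pairs of genes within each array, minus the control mean of the pair (y axis), by pair (x axis), with circles for control arrays, triangles for 4EGI-1 arrays and lines for the group means. Psme2 to Psme1 lies lower and Psmd1 to Psmd2 higher in all 3 treated arrays, while Psmb9 to Psmb6 overlaps.

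Psma3, Psma5, Psmb3, Psmc1 and Psmd2 had several probe sets, of which the brightest was used. When every probe set was tested, 22.8% of all genes were called by their brightest one, and only the probe sets of Psma3 disagreed in their call. Its brightest probe set gave -0.16 (adjusted p = 0.0871 with every probe set tested), and its other 2 gave -0.36 (adjusted p = 0.0106) and -0.35 (adjusted p = 0.00481). Both probe sets of Psma5 passed, at -0.52 and -0.53. Both of Psmb3 were lower without passing (-0.17 and -0.26), and those of Psmc1 and Psmd2 did not pass. Proteasome genes can have near-identical pseudogene copies, and which copy a probe set reads was not settled here.

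Psmc3ip encodes a partner of the recombinase in DNA repair and meiosis, not a proteasome subunit. It read 10.02, 9.95 and 10.01 in controls and 9.59, 9.55 and 9.67 with 4EGI-1. The groups were far apart (-0.39 ± 0.06, adjusted p = 0.00259). Mlx, which overlaps it in RefSeq, fell by 0.39 too (adjusted p = 0.00324), and signals of overlapping transcripts were not separated here. Psme3ip1 differed by -0.11 ± 0.09 (adjusted p = 0.426). Without both genes, 13 of 48 fell and 2 rose.

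Of the 24 measured genes on a list of proteasome partners, ubiquitin shuttles and regulators, 6 rose, 3 fell and 15 did not pass, with a median log2 difference of -0.02. The share called was 37.5%, against 22.9% of all genes and 36.2% of genes at or above the table's median signal, where all 24 lie. Zfand2a (AIRAP), a stress-induced proteasome partner, rose most, from 9.63 to 10.85 (1.22 ± 0.09, adjusted p = 8.7e-05). Uba6, an alternative ubiquitin-activating enzyme gene, rose by 0.84 ± 0.08, and Nfe2l2, which encodes NRF2, by 0.64 ± 0.06. Ecpas, the adaptor ECM29 that ties the core to its cap, rose by 0.59 ± 0.06. The others that rose, named after their values were seen, were Vcp (0.69 ± 0.08), the unfoldase p97, and Faf2 (0.29, adjusted p = 0.0444; 0.0509 with arrays centred on their median, and 0.0523 to 0.133 when any 1 array other than control replicate 1 was left out).

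Sem1, the smallest lid subunit, fell from 9.57 to 9.05 (-0.52 ± 0.08, adjusted p = 0.00181). Ube3c, a ubiquitin ligase on the proteasome, fell by 0.45 ± 0.06 and the shuttle gene Ubqln1 by 0.31 ± 0.06. Nfe2l1, the NRF1 gene, did not pass (-0.05 ± 0.09, adjusted p = 0.778), nor did the core assembly gene Pomp (-0.15 ± 0.06, adjusted p = 0.0974). The proteasomal deubiquitinase gene Usp14 differed by 0.21 ± 0.07 (adjusted p = 0.0569).

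Psmb9 and Psmb8 lie in the MHC in the gene order Psmb9, Tap1, Psmb8, Tap2, where Tap1 and Tap2 encode the peptide transporter of class I presentation. Psmb9 and Psmb8 fell, as above, while Tap1 (0.16 ± 0.06, adjusted p = 0.0960) and Tap2 (-0.21 ± 0.07, adjusted p = 0.0725) did not pass. Of 11 class I genes 1 fell, 0 rose and 10 did not pass, with a median of -0.06. The share called was 9.09%, against 22.9% of all genes and 36.2% of genes at or above the table's median signal, where all 11 lie. The difference between these shares was not tested. Erap1 had the largest difference above 0 without passing (0.36 ± 0.12, adjusted p = 0.0588), and its groups overlapped. The one that fell was Irf1, an activator of immunoproteasome genes, by 0.53 ± 0.08 (adjusted p = 0.00266). The class I light chain gene B2m differed by -0.12 ± 0.06 (adjusted p = 0.203).

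Array medians were 6.38 to 6.43, and arrays of one group correlated at 0.996 to 0.997. Control 1 stood apart for these genes: it was the highest control in 37 of the 50, against 33.1% of all genes. With a mean log2 signal of at least 10 it was the highest in 28 of 35, against 48.7% of all genes at that signal. Over the 50, control 1 lay above the other 2 controls by a median of 0.09. Without control replicate 1, 11 genes fell and 2 rose; without control replicate 2 or 4EGI-1 replicate 2, 9 fell and 1 rose. These fits called 18.5%, 17.8% and 19.5% of all genes. T-lineage markers were present: Cd3e read 12.18 and Notch1 9.46 in controls. The mean over the 12 measured markers was 10.49 to 10.52 in controls and 10.30 to 10.35 with 4EGI-1. Of the 12, 5 fell and 2 rose. The share called was 58.3%, against 22.9% of all genes and 36.2% of genes at or above the table's median signal. The mean over markers of other cells was 5.67 to 5.72 in controls and 5.54 to 5.73 with 4EGI-1 for B cells, and 6.33 to 6.46 against 6.33 to 6.44 for thymic epithelium, with Foxn1 at 6.08. Over 5 stromal and endothelial markers it was 6.73 to 6.86 against 6.62 to 6.74, and the 1 erythroid marker measured read 6.75 to 6.91 against 6.89 to 7.01. Myeloid markers lay at 5.77 to 5.80 in controls and 5.90 to 5.98 with 4EGI-1, and Lyz2 read 5.03 in controls. Of these markers 2 of 5 (Adgre1 and Cd68) rose, against 11.5% of all genes. Adgre1 went from a mean of 4.92 to 5.55, below the table's median of 6.41. The part of these markers in the results was not tested.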

How the data were processed

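Polysomal RNA of 6 samples was measured on 1 array each. The authors deposited log2 signals for each probe set; the submitters' processing notes name RMA, without a version. RMA brings arrays to one distribution at the level of single probes, so values are relative. The deposited values per probe set did not share one distribution exactly, with array medians of 6.38 to 6.43. Of 34760 probe sets, 21640 have 1 gene symbol, 1321 several and 11799 are not listed in the platform annotation; the latter 2 kinds were left out. Symbols were updated by Entrez identifier (21553 matched) through RefSeq, GRCm38.p6. The brightest probe set per symbol over the 6 arrays was kept, giving 19937 genes.

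Differences were fitted across all genes in limma 3.58.1 (lmFit, eBayes; R 4.3.3) with no filter or block, and p-values were Benjamini-Hochberg adjusted over all genes (threshold 0.05, two-sided). The code was tested on simulated data. The number of arrays limits the precision; the median SE was 0.08, with 8.15 degrees of freedom. Members and lists were chosen with earlier results of these data known. All members may be named; values in every array were given for the 12 called members with the smallest adjusted p, the catalytic and tissue-specific core genes and Psme1 to Psme4, and for Psmd2, added after its values were seen. Of the other lists, up to 4 genes called in each direction, and defining markers such as Cd3e, were to be named. Vcp, Faf2 and the markers Adgre1 and Cd68 were named beyond this rule. So were Nfe2l1, Pomp, Usp14, Tap1, Tap2, Erap1 and B2m, which did not pass. The planned comparison with protein length was not made, as protein sequences were not used here. Alternatives covered the block, filters, probe sets, normalization, centring, prior, weights, threshold and left-out arrays. Subunit pairs, the start motif and the share among bright genes were added after seeing the data. Of the listed genes, 8 proteasome names (1 of them an old name of Sem1), Lck and 3 erythroid markers were among those not analysed here.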

Additional observations from a re-analysis of the deposited data

How the results depend on the processing

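Of the 16 called genes, 9 passed under all 15 alternative fits (Psmd1, Psmd9, Psma5, Psmb4, Psmb2, Psmb9, Psmd6, Psme2 and Psmc3ip), and 7 lost their call in some. Of the 34 others, 8 passed in some, all of them lower (Psma1, Psma3, Psma6, Psmb1, Psmb3, Psmb6, Psmd7 and Psmg1). No called gene changed sign. Leaving out 1 array at a time gave 9 to 12 lower and 1 to 2 higher genes. It gave 1 to 2 lower alpha genes with a median of -0.20 to -0.15, and 1 to 4 lower and 0 to 1 higher among activators and assembly genes. The lid and base median ran from -0.035 (without control replicate 2) to 0.048 (without control replicate 1), and class I genes gave 1 to 2 lower and 0 to 1 higher. Over all genes these fits called 17.8% to 19.5%. The trended robust prior, which called 27.1% of all genes, gave 22 lower genes (alpha 5, beta 7) and, for class I, 3 lower and 1 higher. The filter at the median of the table gave 5 lower alpha genes, and for class I 3 lower and 2 higher; the filter at the 25th percentile gave 2 lower and 1 higher for class I. The alpha median was -0.16 under both filters, where Psma8 was not tested, -0.22 with the mean of probe sets and -0.15 after quantile normalization. The filters called 46.6% and 30.3% of the genes tested. An adjusted p under 0.01 left 8 lower and 1 higher genes (alpha 1 lower, activators and assembly 1 lower and 0 higher), and 1488 higher and 1248 lower among all genes. The causes were not tested; filters leave fewer genes, and left-out arrays fewer arrays, by construction.

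Samples with the same replicate number deviated together only weakly (correlations of 0.061, 0.107 and -0.021 over all genes), and control 3 correlated best with 4EGI-1 replicate 1, so the numbers were not taken to pair the samples. With the replicate block, which called 20.4% of all genes, 11 genes were lower and 2 higher, class I had 1 gene higher, and the adjusted p of Psmb8, Psmd8, Psmg3 and Faf2 was 0.0773, 0.053, 0.0697 and 0.0561, past the threshold for none of them.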
